A study of Mus musculus with 8 samples.

Results

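The 9 genes described here are the transcription factor gene Maf, the receptor genes Csf1r, Cd14, Adgre1 and Cd163, the 3 C1q chain genes C1qa, C1qb and C1qc, and Ms4a7. They are used as macrophage genes, were chosen by name and make up 9 of the 55487 gene identifiers in the mouse count table. BMDC are bone marrow-derived dendritic cells, grown here for 10 days in 20 ng/ml GM-CSF from WT female C57BL/6J mice 6 to 8 weeks old. BMDC-fer are the same kind of cells sorted after 4 h with Jurkat cells, an established human T-cell leukaemia line killed by ferroptosis with 0.5 µM ML162 for 14 h. There were 4 libraries of untreated BMDC and 4 of BMDC-fer, and both groups share the mouse strain, genotype and culture. BMDC-fer were selected for engulfed material, while the sources used here do not say that untreated BMDC were sorted, so selection of engulfing cells and a response to engulfment cannot be told apart. In bulk RNA, fewer cells of a type and less RNA per cell cannot be told apart either.

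Cultures of bone marrow in GM-CSF are known to hold macrophage-like cells beside dendritic cells, and the genes studied here are textbook markers of the macrophage lineage. Csf1r signalling keeps macrophages alive, Maf drives part of the macrophage gene programme, and macrophages are a main source of C1q. C1q is the recognition molecule of the classical complement pathway, binds immune complexes and dying cells, and is built from an A, a B and a C chain encoded by neighbouring genes.

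Total counts per library lay between 39326672 and 50532209, and a floor of 3 counts corresponds to 0.0594 to 0.0763 CPM (counts scaled to the size of the library). That floor covers counting error only. Replicates 1 and 2 stood apart from replicates 3 and 4 in BMDC and in BMDC-fer, so each gene is given over all libraries and within each replicate pair. The study describes the sequenced samples as independently collected, but neither it nor the labels say that replicates are separate mice. The p-values therefore measure the spread between these samples, part of which may be technical.

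All 9 genes passed the filter on low counts, and their levels spanned a wide range. Per length of exon, C1qb was the most abundant transcript in BMDC with 456 ± 195 RPKM (CPM divided by exon length in kilobases; mean ± SD, n = 4), a level above that of 99.3% of tested genes. C1qa followed with 220 ± 68.8 RPKM, C1qc with 152 ± 40.8, Csf1r with 150 ± 26.6, Adgre1 with 108 ± 12.1 and Cd14 with 102 ± 76.5. Ms4a7 at 5.66 ± 0.540 RPKM, Maf at 4.74 ± 4.21 and Cd163 at 0.565 ± 0.521 were far less abundant. The ranges over the 4 BMDC libraries overlapped between all neighbours in this order except between Csf1r and Adgre1 and between Cd14 and Ms4a7. In BMDC-fer the order of the first 4 genes was the same, from C1qb at 677 ± 299 RPKM to Csf1r at 198 ± 11.5, while Cd14 at 94.6 ± 42.7 stood above Adgre1 at 62.1 ± 9.43.

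Between BMDC-fer and BMDC, 2 of the 9 genes changed, Ms4a7 upwards and Adgre1 downwards, while 7 were not called. To be called, a gene needed an adjusted p no greater than 0.05 in the quasi-likelihood test of edgeR (Benjamini-Hochberg over all 15411 tested genes) and a log2 fold change of at least 0.58 in size. Of all tested genes 9.38% were called, 3.47% higher and 5.91% lower. The median log2 fold change was 0.47 over the 9 genes and 0.00069 over all tested genes. Within replicates 1 and 2, 5 of the 9 genes were called, beside 22.3% of all tested genes (9.36% higher, 12.9% lower). These were Maf, C1qc, Cd14 and Ms4a7, which rose, and Adgre1, which fell. Within replicates 3 and 4, 5 were called, beside 33.0% of all tested genes (16.8% higher, 16.2% lower). There Maf, Csf1r, C1qb and Ms4a7 rose and Adgre1 fell. The effect itself differed between the replicate pairs for 3 of the 9 genes, Maf, Csf1r and Cd14, in a test that was passed by 37.8% of all tested genes. The 4 values of one group lay wholly apart from those of the other for Csf1r, Ms4a7 and Adgre1, beside 22.9% of all tested genes.

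**Figure D1:**
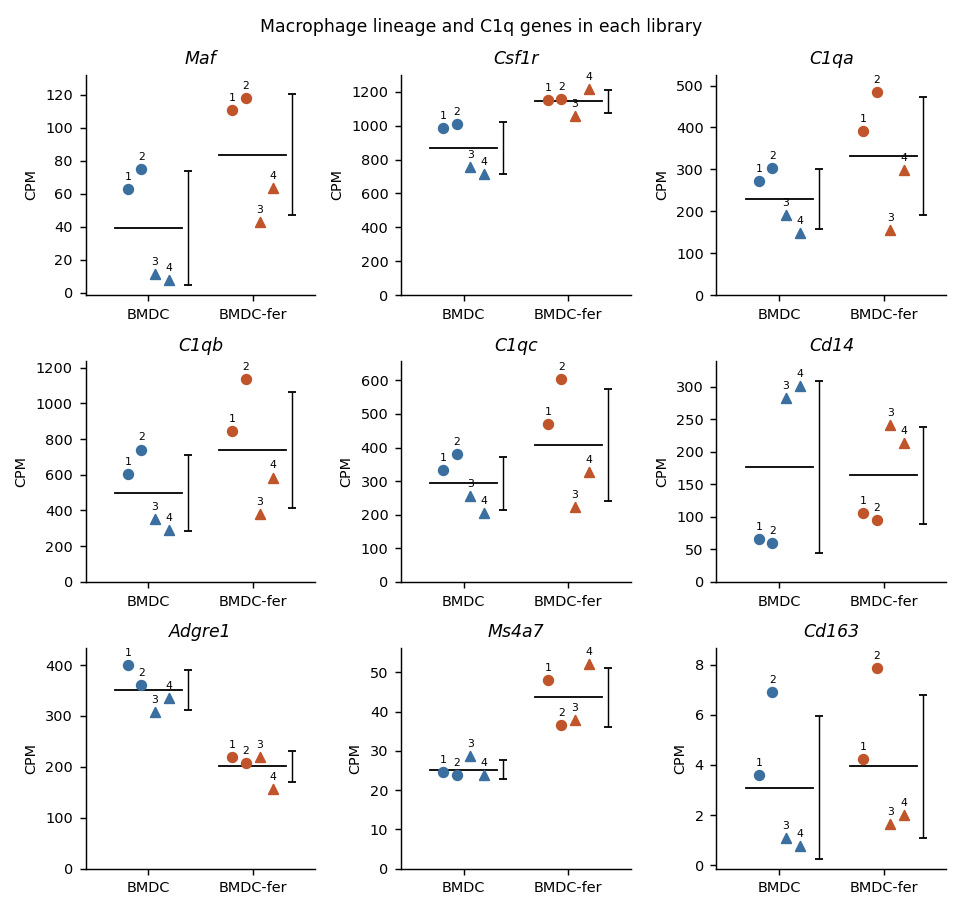
Expression of the 9 genes in CPM, with a linear axis from 0 in each panel. Points are single libraries numbered by replicate (circles for replicates 1 and 2, triangles for 3 and 4), lines are means and bars at the side are SDs over 4 libraries. Adgre1 is lower and Csf1r and Ms4a7 are higher in every BMDC-fer library than in any BMDC library. Maf, C1qa, C1qb, C1qc, Cd14 and Cd163 differ more between replicate pairs than between groups.

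Maf, which encodes the transcription factor c-Maf, stood at 62.7, 74.9, 11.3 and 7.56 CPM in BMDC replicates 1 to 4. In BMDC-fer replicates 1 to 4 it stood at 111, 118, 42.7 and 63.4 CPM. Each BMDC-fer library was above the BMDC library of the same number, but replicate 3 of BMDC-fer was below BMDC replicates 1 and 2, and so the groups overlapped. Over all libraries the log2 fold change was 1.10 ± 0.71 (SE) and was not called (adjusted p = 0.330, edgeR's quasi-likelihood test). With replicate number fitted as a block it was 1.58 ± 0.42 in the same test (adjusted p = 0.0525), also not called. Within replicates 1 and 2 it was 0.73 ± 0.20 (adjusted p = 0.0183), and within replicates 3 and 4 it was 2.49 ± 0.22 (adjusted p = 3.87e-05). The rise was larger in replicates 3 and 4 by 1.76 ± 0.30 on the log2 scale (adjusted p = 0.00213 for the difference). In untreated BMDC the mean of replicates 1 and 2 was 7.30 times that of replicates 3 and 4, and in BMDC-fer it was 2.16 times. The call within replicates 1 and 2 was lost without BMDC replicate 1 (log2 fold change 0.61) and without BMDC-fer replicate 2 (0.68) and with library size alone as scaling (0.54), whereas the call within replicates 3 and 4 held in each fit that left out 1 library. Of the 50-base stretches of the longest Maf transcript 6.03% also occur in other genes, and its exons overlap those of Gm15655, which had 0 counts in all 8 libraries.

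Csf1r encodes the tyrosine kinase receptor for CSF1 and IL-34. It stood at 988, 1008, 755 and 714 CPM in BMDC replicates 1 to 4 and at 1152, 1156, 1055 and 1216 CPM in BMDC-fer. The lowest BMDC-fer library was above the highest BMDC library, which gave an exact two-sided permutation p of 0.0286, the smallest that 4 against 4 libraries allow. The log2 fold change was nevertheless only 0.40 ± 0.15 and was not called (adjusted p = 0.111 in edgeR's quasi-likelihood test). It was 0.21 ± 0.09 within replicates 1 and 2 (adjusted p = 0.0977) and 0.63 ± 0.09 within replicates 3 and 4 (adjusted p = 4.99e-04), a difference of 0.42 ± 0.13 (adjusted p = 0.0299). BMDC-fer libraries lay close together, and the difference between pairs stood in BMDC, where replicates 1 and 2 had 1.36 times the mean of replicates 3 and 4. The difference between pairs missed the threshold without any 1 of BMDC replicates 2, 3 and 4 and BMDC-fer replicates 1 and 4 (log2 differences of 0.32 to 0.46), and without BMDC-fer replicate 4 the fold within replicates 3 and 4 fell under the threshold (log2 fold change 0.53). Since 17.7% of the 50-base stretches of Csf1r also lie in the overlapping gene Hmgxb3, and the use of strand in counting is not given in the sources used here, its counts are uncertain to that extent. The mean level of Hmgxb3 was 17.5 CPM in BMDC, against 23.1 CPM in the BMDC-fer libraries.

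Cd14 encodes the co-receptor that hands lipopolysaccharide to TLR4 and its partner MD-2. It was at 65.9, 59.9, 282 and 302 CPM in BMDC replicates 1 to 4, and at 107, 94.8, 241 and 213 CPM in BMDC-fer. Here replicates 3 and 4 were the high libraries in both groups, the reverse of Maf, with 4.64 times the mean of replicates 1 and 2 in BMDC. The groups overlapped, and over all libraries the log2 fold change was -0.11 ± 0.58 (adjusted p = 0.910 in edgeR's quasi-likelihood test). Within replicates 1 and 2 Cd14 rose by 0.68 ± 0.10 on the log2 scale (adjusted p = 8.49e-04). Within replicates 3 and 4 the log2 fold change was -0.36 ± 0.10, past the threshold on the adjusted p (0.0113) but not on the fold. The effects in the replicate pairs differed by -1.04 ± 0.14 (adjusted p = 6.77e-04), so the value over all libraries averages opposite directions. With library size alone as scaling the call within replicates 1 and 2 was lost (log2 fold change 0.49).

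Adgre1 encodes the adhesion receptor known as the F4/80 antigen, a classical surface marker of mouse macrophages. It was at 400, 361, 308 and 335 CPM in BMDC replicates 1 to 4 and at 219, 208, 220 and 156 CPM in BMDC-fer. Every BMDC-fer library was below every BMDC library, with means of 201 ± 30.5 and 351 ± 39.2 CPM (SD, n = 4). Adgre1 fell by 0.81 ± 0.14 on the log2 scale (adjusted p = 0.0119 in edgeR's quasi-likelihood test, exact permutation p = 0.0286). The log2 fold change was -0.83 ± 0.14 within replicates 1 and 2 (adjusted p = 0.00218) and -0.77 ± 0.14 within replicates 3 and 4 (adjusted p = 0.00201). The difference between pairs was 0.06 ± 0.20 (adjusted p = 0.849). Without BMDC-fer replicate 4, the lowest library, the fold within replicates 3 and 4 fell under the threshold (log2 fold change -0.54).

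Cd163 encodes the scavenger receptor for complexes of haemoglobin and haptoglobin. Per length it was the scarcest of the genes in BMDC. It was at 3.59, 6.91, 1.09 and 0.748 CPM in BMDC replicates 1 to 4 and at 4.23, 7.86, 1.65 and 2.02 CPM in BMDC-fer. As with Maf, replicates 1 and 2 were the high libraries in both groups, with 5.72 times the mean of replicates 3 and 4 in BMDC and 3.29 times in BMDC-fer. The groups overlapped and the log2 fold change was 0.35 ± 0.74 (adjusted p = 0.780 in edgeR's quasi-likelihood test). It was 0.20 ± 0.36 within replicates 1 and 2 (adjusted p = 0.697) and 0.99 ± 0.44 within replicates 3 and 4 (adjusted p = 0.0862). When replicate number was fitted as a block, the value within replicates 3 and 4 was 0.99 with an adjusted p of 0.0111 and was then called. It was also called without a filter on low counts (1.02) and without BMDC-fer replicate 1 or 2 (log2 fold change 1.00 in both fits).

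Ms4a7 encodes a membrane-spanning protein of the MS4A family and is used as a macrophage marker. It was at 24.5, 23.8, 28.8 and 23.8 CPM in BMDC replicates 1 to 4 and at 48.1, 36.6, 37.7 and 52.0 CPM in BMDC-fer. The groups did not overlap, and the means were 25.2 ± 2.41 and 43.6 ± 7.58 CPM (SD, n = 4). Ms4a7 rose by 0.79 ± 0.15 on the log2 scale (adjusted p = 0.0133 in edgeR's quasi-likelihood test, exact permutation p = 0.0286). The log2 fold change was 0.81 ± 0.18 within replicates 1 and 2 (adjusted p = 0.00638) and 0.77 ± 0.18 within replicates 3 and 4 (adjusted p = 0.00579), with a difference of -0.04 ± 0.25 (adjusted p = 0.911). The call within replicates 3 and 4 was lost without BMDC replicate 4 (0.64) and without BMDC-fer replicate 4 (0.53).

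**Figure D2:**
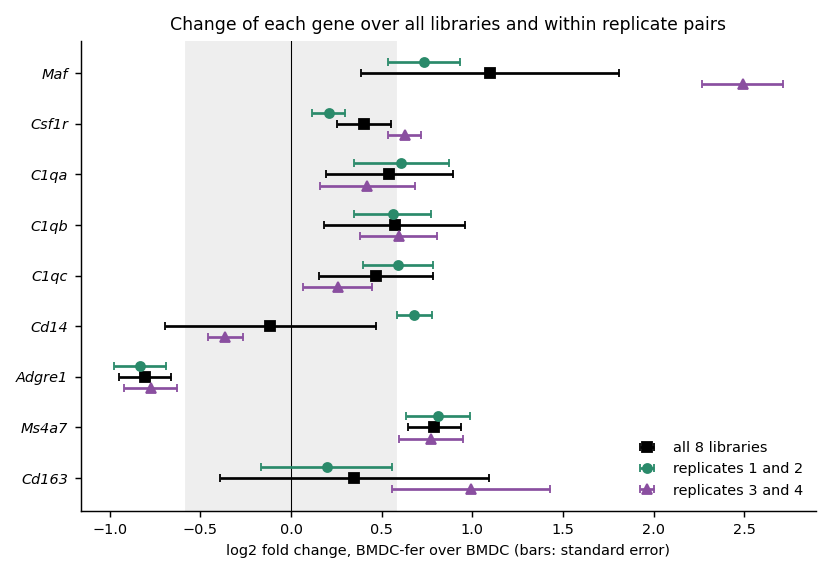
Log2 fold change of BMDC-fer over BMDC for each gene over all 8 libraries (squares), within replicates 1 and 2 (circles) and within replicates 3 and 4 (triangles), with standard errors. The shaded band marks absolute log2 fold changes under 0.58. The estimates for Adgre1 and Ms4a7 lie within a standard error of each other, while Maf moves from 0.73 to 2.49 and Cd14 from 0.68 to -0.36.

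The C1q genes lie side by side on chromosome 4 within 18675 bases of GRCm38, all on the minus strand, in the order C1qb (chr4:136880129-136886187), C1qc (chr4:136889804-136893065) and C1qa (chr4:136895917-136898803). Transcript levels of the chains moved together from library to library. The RefSeq table of promoters (GRCm38.p6) held 4 of the 9 genes, C1qb, C1qc, Cd163 and Ms4a7. The 250 bases before the start were searched on both strands for TGCTGA, the core of a Maf half-site, GAGGAA, the purine core bound by PU.1, TGACTCA, the AP-1 site, and the interferon response element. C1qb held TGCTGA from base 120 to 125 and GAGGAA from base 221 to 226. In C1qc GAGGAA lay on the other strand at bases 58 to 63, where it reads TTCCTC. Among all 32851 promoters there 16.1% held TGCTGA, 23.3% GAGGAA, 4.46% TGACTCA and 2.98% the interferon response element. In Ms4a7, shown because it was the gene called higher, and in Cd163 none of the 4 motifs occurred in this window. A match is a description and not a binding site. Capitals below mark the matches, and for C1qc only the 99 bases outside the annotated gene are shown.
C1qb promoter, chr4:136886201-136886450, minus strand: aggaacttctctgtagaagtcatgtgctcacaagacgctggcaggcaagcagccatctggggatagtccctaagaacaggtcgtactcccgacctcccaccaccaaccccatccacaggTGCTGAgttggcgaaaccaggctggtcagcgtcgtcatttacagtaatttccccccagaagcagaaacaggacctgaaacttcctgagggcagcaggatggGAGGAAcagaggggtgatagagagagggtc
C1qc promoter, chr4:136893066-136893164, minus strand: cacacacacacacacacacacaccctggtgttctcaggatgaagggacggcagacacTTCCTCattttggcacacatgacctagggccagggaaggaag
Ms4a7 promoter, chr19:11336147-11336396, minus strand: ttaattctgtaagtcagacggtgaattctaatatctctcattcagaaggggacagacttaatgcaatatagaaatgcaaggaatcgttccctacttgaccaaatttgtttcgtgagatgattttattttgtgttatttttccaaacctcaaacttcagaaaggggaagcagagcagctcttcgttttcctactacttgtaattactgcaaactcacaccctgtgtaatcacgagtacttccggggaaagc

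C1qa, which encodes the A chain, was at 272, 303, 191 and 148 CPM in BMDC replicates 1 to 4 and at 393, 485, 154 and 299 CPM in BMDC-fer. C1qb, for the B chain, was at 601, 741, 353 and 288 CPM in BMDC and at 847, 1133, 382 and 585 CPM in BMDC-fer. C1qc, for the C chain, was at 333, 382, 256 and 205 CPM in BMDC and at 470, 605, 223 and 327 CPM in BMDC-fer. For all 3 chains, replicates 1 and 2 were the high libraries of each group, and replicate 3 of BMDC-fer was the lowest BMDC-fer library and lay among the BMDC libraries. Summed over the chains, C1q was at 1207, 1426, 800 and 640 CPM in BMDC and at 1709, 2223, 760 and 1211 CPM in BMDC-fer. Between libraries of the same number the summed level was 1.42 times as high in BMDC-fer for replicate 1, 1.56 for replicate 2, 0.950 for replicate 3 and 1.89 for replicate 4. Hence 3 of 4 replicates were higher and 1 was slightly lower.

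None of the chains was called over all libraries. The log2 fold change was 0.54 ± 0.35 for C1qa (adjusted p = 0.329), 0.57 ± 0.39 for C1qb (adjusted p = 0.355) and 0.47 ± 0.31 for C1qc (adjusted p = 0.346, all in edgeR's quasi-likelihood test). The 95% intervals ran from -0.25 to 1.34, from -0.31 to 1.46 and from -0.24 to 1.18, so each interval held both 0 and 1. With replicate number as a block the same test gave 0.48 ± 0.22 for C1qa (adjusted p = 0.177). It gave 0.56 ± 0.16 for C1qb (adjusted p = 0.0665) and 0.41 ± 0.17 for C1qc (adjusted p = 0.149), and none was called. Within replicates 1 and 2 C1qc rose (0.59 ± 0.19, adjusted p = 0.0376), while C1qa at 0.61 ± 0.26 (adjusted p = 0.0952) and C1qb at 0.56 ± 0.21 (adjusted p = 0.0653) were not called. Within replicates 3 and 4 C1qb rose (0.59 ± 0.21, adjusted p = 0.0443), while C1qa at 0.42 ± 0.26 (adjusted p = 0.213) and C1qc at 0.26 ± 0.19 (adjusted p = 0.295) were not called. None of the 3 chains differed in effect between the pairs in the test of the difference (adjusted p = 0.369 to 0.941). These single calls rested on few libraries. The C1qc call was lost without any 1 of the 4 BMDC libraries or BMDC-fer replicate 2 (log2 fold change 0.39 to 0.69) and with library size alone as scaling (0.39), and the C1qb call was lost without BMDC replicate 3 (0.75), BMDC replicate 4 (0.46) or BMDC-fer replicate 4 (0.26) and when replicate number was a block (0.57, under the fold threshold, adjusted p = 0.0231). Calls also appeared in some of these fits, for C1qb within replicates 1 and 2 without BMDC-fer replicate 1 (0.77) and for C1qa within replicates 3 and 4 without BMDC-fer replicate 3 (0.83) and within replicates 1 and 2 without BMDC-fer replicate 3 or 4 (0.61 in both).

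The proportions of the chains varied far less than their levels. In all 8 libraries C1qb was above C1qa and C1qa above C1qc in RPKM. The ratio of C1qb to C1qa lay between 1.76 and 2.37, and that of C1qc to C1qa between 0.589 and 0.780, while the summed C1q level ranged from 640 to 2223 CPM. The ratio of C1qb to C1qa was 2.02 ± 0.258 in BMDC and 2.13 ± 0.217 in BMDC-fer (SD, n = 4), a difference within the spread. The nearest tested genes, 2 on each side, do not adjoin the cluster (chr4:136880129-136898803). On one side lie Luzp1 (chr4:136469761-136554780) and Kdm1a (chr4:136550540-136602723). On the other lie Zbtb40 (chr4:136979732-137048801) and Cdc42 (chr4:137319696-137357720). None of these 4 genes was called by edgeR over all libraries without a block. Luzp1 had a log2 fold change of -0.76 (adjusted p = 0.129) and Kdm1a of -0.15 (adjusted p = 0.317) on one side, and Zbtb40 had 0.71 (adjusted p = 0.0577) and Cdc42 -0.09 (adjusted p = 0.585) on the other. Luzp1 was lower when replicate number was fitted as a block (-0.79, adjusted p = 0.0117) and within each replicate pair (-0.87, adjusted p = 0.00105, and -0.71, adjusted p = 0.00162). Zbtb40 was higher with DESeq2 (0.70, adjusted p = 0.0127) and within replicates 3 and 4 (1.22, adjusted p = 5.57e-05), and its groups did not overlap.

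**Figure D3:**
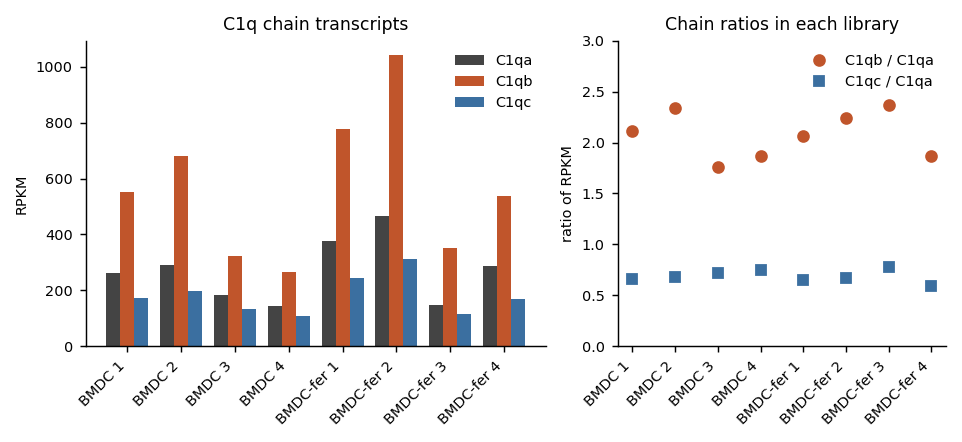
Left, RPKM of the 3 C1q chain genes in each library. Right, the ratios of C1qb and C1qc to C1qa in the same libraries on an axis from 0. Levels are highest in replicates 1 and 2 of BMDC-fer, and the ratios stay between 1.76 and 2.37 and between 0.589 and 0.780.

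Among other transcription factors of monocytes and macrophages, 4 of 15 tested were higher and 0 lower in edgeR's fit, with a median log2 fold change of 0.44. With DESeq2, Klf4 (-1.55, adjusted p = 0.00745) and Nr4a1 (-1.39, adjusted p = 0.0369), both named after their values were seen, were lower. Within replicates 1 and 2 edgeR's fit gave -0.37 for Klf4 and -0.50 for Nr4a1. Within replicates 3 and 4 it gave -2.13 and -1.74. Both genes differed between the pairs (adjusted p = 5.40e-04 and 0.00641 in edgeR's test of the difference). Nr1h3, which encodes the sterol sensor LXR alpha, rose by 1.44 ± 0.28 on the log2 scale (adjusted p = 0.0160). The MiT family genes Tfec (0.78 ± 0.12, adjusted p = 0.00694), Mitf (0.77 ± 0.20, adjusted p = 0.0387) and Tfeb (0.69 ± 0.10, adjusted p = 0.00577), which control lysosomal genes, rose as well, all in edgeR's quasi-likelihood test. The call of Mitf was lost when any of 6 libraries was left out, BMDC replicates 2 and 3 and the 4 BMDC-fer replicates (log2 fold change 0.75 to 0.85). Of 6 tested Maf family genes, Maf included, 0 were called in edgeR's fit over all libraries. Maff, named after its values were seen, was lower with DESeq2 (-1.51, adjusted p = 0.0207). In edgeR's fit Maff was at 0.11 within replicates 1 and 2 and at -2.54 within replicates 3 and 4. The pairs differed (adjusted p = 6.38e-04 in edgeR's test of the difference).

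Around Csf1r, 1 of 11 tested genes for ligands, adaptors and related receptors was higher and 1 lower. Csf1, the gene for the ligand, was at 86.5, 83.0, 137 and 139 CPM in BMDC and at 334, 212, 165 and 189 CPM in BMDC-fer. It rose by 1.01 ± 0.27 on the log2 scale (adjusted p = 0.0420), a call that was lost when replicate number was fitted as a block (adjusted p = 0.0700) and without any 1 of the 8 libraries (log2 fold change 0.77 to 1.14). Its log2 fold change was 1.69 within replicates 1 and 2 and 0.36 within replicates 3 and 4, and the pairs differed (adjusted p = 0.00351). Il34, the other ligand gene, had at most 1 count in any library and was not tested. Tyrobp, which encodes the adaptor DAP12, was not called (0.26 ± 0.19, adjusted p = 0.396). Flt3, the receptor gene of dendritic cell progenitors, fell from 3.43 to 4.47 CPM in BMDC to between 0.122 and 0.445 CPM in BMDC-fer, with a fitted log2 change of -4.06 ± 0.40 (adjusted p = 0.00207).

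Of the partners of C1q and the next complement components, 0 of 10 tested were called, with a median log2 fold change of 0.19. C1ra, a protease gene of the C1 complex, stood at 0.22 ± 0.30 (adjusted p = 0.655) and C1s1 at -0.13 ± 0.56 (adjusted p = 0.895), with C1s1 between 0.115 and 0.599 CPM. C1qbp, which encodes a C1q-binding protein, was at 0.29 ± 0.19 (adjusted p = 0.340). Serping1, the gene for the C1 inhibitor, had 4 counts at most and was not tested.

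Of 10 genes of lipopolysaccharide recognition 1 was called. Ly96, which encodes MD-2, rose from 5.35 to 6.58 CPM in BMDC to between 11.2 and 15.5 CPM in BMDC-fer (log2 fold change 1.11 ± 0.16, adjusted p = 0.00587), while Tlr4 was at 0.16 ± 0.15 (adjusted p = 0.507). Under the block 3 of the 10 were higher, with Cd180 (0.68, adjusted p = 0.0171) and Cd36 (0.97, adjusted p = 0.0218), both named after their values were seen, added. Of 13 tested scavenger receptor and haemoglobin-handling genes, Cd163 included, 3 were higher and 0 lower, with a median of 0.77. Hmox1, for haem oxygenase, was at 159, 133, 399 and 470 CPM in BMDC and at 1048, 835, 1391 and 1417 CPM in BMDC-fer. It rose by 2.02 ± 0.42 on the log2 scale (adjusted p = 0.0215), and the call was lost without BMDC-fer replicate 3 (1.93) and without BMDC-fer replicate 4 (1.92). The scavenger receptor genes Stab1 (1.39 ± 0.26, adjusted p = 0.0140) and Msr1 (1.16 ± 0.14, adjusted p = 0.00344) also rose. Hp, which encodes haptoglobin, was not called (0.34 ± 0.29, adjusted p = 0.462). Under the block 5 of the 13 were higher and 1 lower, as Marco and Cd36 rose and Cd6 fell, named after their values were seen.

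Adgre1 was the called member of its family of 3 genes. Adgre4 was at 24.0, 22.3, 2.79 and 1.80 CPM in BMDC and at 30.6, 24.0, 1.39 and 2.72 CPM in BMDC-fer (0.21 ± 1.09, adjusted p = 0.914), and Adgre5 had a log2 fold change of -0.40 ± 0.29 (adjusted p = 0.389). Adgre4 therefore showed the split between replicate pairs that Adgre1 did not. Of 10 tested MS4A genes 3 were higher and 0 lower, Ms4a7, Ms4a14 (1.22 ± 0.29, adjusted p = 0.0314) and Ms4a6d (0.72 ± 0.19, adjusted p = 0.0413). The call of Ms4a6d was lost with library size alone as scaling (0.61) and without 1 library in 6 of 8 fits, those without BMDC replicates 1, 3 and 4 and BMDC-fer replicates 1, 2 and 4 (0.62 to 0.78). The call of Ms4a14 was lost under the same scaling (1.12) and without any of the same 6 libraries (0.99 to 1.28). Ms4a6b (0.39 ± 0.93, adjusted p = 0.807) and Ms4a6c (-0.56 ± 0.82, adjusted p = 0.677) were not called. Under the block 1 gene, Ms4a3, named after its values were seen, was also lower (-3.20, adjusted p = 0.0217). The call of Ms4a7 held in each of these fits.

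**Figure D4:**
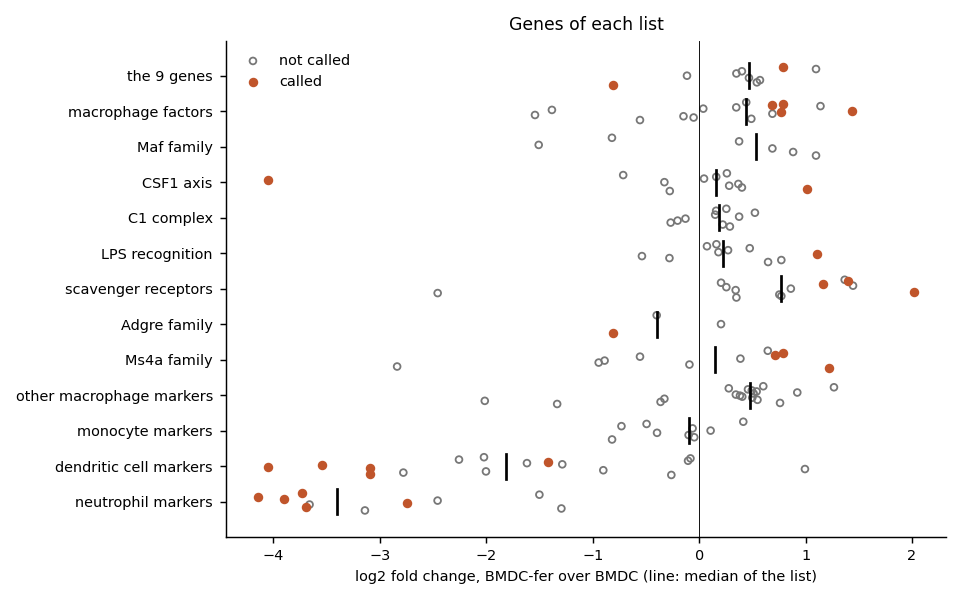
Log2 fold change of each tested gene, BMDC-fer over BMDC, for the 9 genes and 12 related lists. Filled points were called, open points were not, and the vertical line is the median of the list. Called genes of the macrophage factor, scavenger receptor and MS4A lists lie to the right of 0, and those of the dendritic cell and neutrophil lists lie to the left.

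Markers of other cells moved beside the 9 genes, and their part in these results was not tested. Of 18 tested genes listed as further macrophage markers 0 were called, with a median log2 fold change of 0.48. The list included Csf3r, which is not a marker of macrophages alone and was also counted around Csf1r. Vsig4 and Timd4, markers of resident macrophages, had at most 1 count in any library. Under the block 1 of the 18 was higher (Slc40a1) and 2 were lower (Cd300e and Aif1), all named after their values were seen. Of 9 tested monocyte markers 0 were called (median -0.10). Of 16 dendritic cell markers 0 were higher and 5 lower, namely Flt3, Fscn1 (-3.54 ± 0.35, adjusted p = 0.00207), Ccr7 (-3.09 ± 0.34, adjusted p = 0.00268), Dpp4 (-3.10 ± 0.70, adjusted p = 0.0259) and Irf4 (-1.42 ± 0.29, adjusted p = 0.0193, named after its values were seen), and the median was -1.81. With replicate number as a block 11 of the 16 were lower and 1, Clec9a, was higher (1.16, adjusted p = 0.0266, named after its values were seen). Their summed level was 4280 to 9008 CPM in BMDC and 1996 to 4060 CPM in BMDC-fer. The call of Dpp4 was lost without BMDC-fer replicate 2 (-3.14), 3 (-2.81) or 4 (-2.81). Of 10 neutrophil markers 5 were lower (Retnlg, Ngp, S100a9, Elane and, named after its values were seen, Ly6g), against 9 under the block, and their summed level went from between 46.2 and 265 CPM in BMDC to between 14.1 and 44.6 CPM in BMDC-fer. With 1 library left out, the calls of Ngp and Elane were each lost in 6 of 8 fits (log2 fold change -3.23 to -4.29), that of S100a9 in 5 (-3.32 to -3.64) and that of Retnlg without BMDC-fer replicate 4 (-3.89). Among defining markers of T cells, which also use Maf, most were near 0, with at most 15 counts of Cd3d, 6 of Cd3e and 2 of Trac in any library, and 9 of 12 T cell markers stayed under 1 CPM in all 8. Of the 3 T cell markers tested, Lck, named after its values were seen, was lower (-1.59 ± 0.44, adjusted p = 0.0482). Cd28, also named after its values were seen, was the most abundant of the 3 and was not called (0.28 ± 0.23, adjusted p = 0.443). It was at 27.5 to 40.7 CPM in BMDC and at 28.4 to 53.0 CPM in BMDC-fer. Cd3g, likewise named after its values were seen, was at 4.4, 1.31, 0.260 and 0.948 CPM in BMDC and between 0.0240 and 0.465 CPM in BMDC-fer. Its log2 fold change was -3.57 ± 1.11 (adjusted p = 0.0696), and it was lower under the block (adjusted p = 0.00702) and with DESeq2 (adjusted p = 0.00581). Of 6 B cell and of 6 erythroid markers all were under 1 CPM in all libraries. Klrk1, the 1 tested gene of 6 NK cell markers, fell (-2.16 ± 0.57, adjusted p = 0.0418). Of 5 tested stromal and endothelial markers 1, Pecam1, was lower (-1.44 ± 0.18, adjusted p = 0.00366), and the median was 0.17. The endothelial gene Cdh5, named after its values were seen, was at 1.28 ± 0.56 and not called (adjusted p = 0.164). Of 2 tested mast cell and basophil markers 0 were called without the block. The summed level of that list was 21.9 to 29.6 CPM in BMDC and 5.87 to 22.4 CPM in BMDC-fer. Most of it was Kit, also counted around Csf1r, at 19.5 to 23.6 CPM in BMDC and 4.84 to 20.6 CPM in BMDC-fer. The call of Klrk1 was lost in 7 of 8 fits that left out 1 library, all but the one without BMDC-fer replicate 1 (-1.84 to -2.29).

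Over the 8 libraries, the pattern of some other genes came close to that of Maf, Csf1r and C1q. Likeness was the root mean square difference of log2 CPM centred on each gene's mean, among 11450 genes whose mean count reached 100, and carries no p because the points share their libraries. Nearest to Maf were Gpr84 (0.27), Tha1 (0.30), Gm30329 (0.31), Tlr1 (0.32) and AC121821.1 (0.40). None of these 5 was called by edgeR over all libraries without the block, though Tlr1 was higher with DESeq2 (1.54, adjusted p = 0.0445). With the block in edgeR 4 of them were higher, Gpr84 (1.43, adjusted p = 0.0356), Tha1 (1.45, adjusted p = 0.0452), Tlr1 (1.73, adjusted p = 0.00762) and AC121821.1 (1.26, adjusted p = 0.0470), while Maf itself was at 1.58 (adjusted p = 0.0525). Nearest to Csf1r were Thoc5 (0.05), Pgghg (0.06), Apbb1ip (0.06), Nelfa (0.06) and Tufm (0.06). Nearest to the mean of the C1q chains were AI506816 (0.16), Il15 (0.17), Fam72a (0.17), Tmem273 (0.19) and Cd180 (0.20). The chains themselves lay closer to that mean, at 0.07 for C1qa, 0.10 for C1qb and 0.09 for C1qc, as they are part of it.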

How the data were processed

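RNA was sequenced from 4 samples of untreated BMDC and 4 samples of sorted BMDC-fer. According to the study's methods the authors aligned reads by HISAT2 to a mouse and a human genome, summed them over genes by featureCounts and compared groups with DESeq2. The submitters' processing notes also name CASAVA and mm10, with no versions. The deposited values are raw counts of mouse genes and were used without change. Whether strand was used and how reads that fit both genomes were treated is not given in the sources used here, and human counts were not analysed here.

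Groups and replicate numbers came from the sample labels. Symbols and exon lengths came from GENCODE M21 (GRCm38), which named 55227 of 55487 identifiers. The analysis used edgeR 4.0.16 in R 4.3.3 with TMM scaling, filterByExpr with a count minimum of 10 (0.236 CPM, 15411 genes kept), quasi-likelihood tests, Benjamini-Hochberg adjustment. CPM is scaled by TMM library sizes, and RPKM divides CPM by the exon length. Values within replicates 1 and 2 or 3 and 4 came from 1 model with a mean per group and replicate pair. For each of the 9 genes log2(CPM + 0.05) was also put to an exact permutation test, two-sided. Fits were tested on simulated data. Of 196 genes simulated with a log2 change of 1 in size, 25.5% were called between BMDC-fer and BMDC. In the test of the difference between replicate pairs, 42.2% of 199 such genes were recovered. A gene that was not called may therefore still have changed. The main fit, the fit within replicate pairs and the permutation test took no account of pairing by number, and replicate number was fitted as a block only as an alternative. Same-numbered BMDC and BMDC-fer libraries deviated together from their group means (r from 0.313 to 0.446 across genes). Other numbers of the same replicate pair correlated at 0.186 to 0.380 and 2 of 4 numbers correlated best with their own, so these r do not separate pairing by number from the split between replicates 1 and 2 and replicates 3 and 4. No 2 libraries of a group agreed within sampling noise (chi-square per gene at least 9.00). Columns of other samples numbered 0.

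The genes, lists, tests and alternatives were chosen with earlier results of these data known. Genes named beside the 9 are up to 4 called genes per list with the largest absolute fold change and at least 1 CPM in a group, partners of the 9 genes (receptors, ligands, complex members, near relatives), the 5 genes most like Maf, Csf1r and C1q, and 2 tested neighbours on each side of the C1q genes. Of the genes this rule covers, 1 is not reported here. Alternatives were DESeq2 1.42.0, RLE factors, library size alone, other filters, no fold threshold, the replicate block, pseudocounts of 0.5 and 1, and leaving out each library. Promoter sequences are from RefSeq (GRCm38.p6).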

Additional observations from a re-analysis of the deposited data

Results flagged for a closer look

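In untreated BMDC, Ms4a7 in replicate 3 (28.8 CPM) lay apart from the other 3 libraries (23.8 to 24.5 CPM), with a gap of 0.851 of the group's range. It was 1 of 46 groups of 4 libraries examined, of which chance alone would single out about 1 in 20.

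Only the 9 genes and their partners reported here were looked at for a difference between the replicate pairs. For 10 of these the log2 fold change in replicates 3 and 4 differed from that in replicates 1 and 2 in edgeR's test of the difference. Other genes named above, Maff, Klf4 and Nr4a1 among them, also passed that test and are not counted here. Among the 9 genes it was larger by 1.76 for Maf and by 0.42 for Csf1r, and the difference was -1.04 for Cd14. Among their partners it was larger by 2.68 for Ms4a6b and by 1.28 for Ms4a6c. Differences were negative for Csf1 (-1.33), Tyrobp (-0.717), C1qbp (-0.512), Hp (-0.958) and Hmox1 (-0.997). Such a difference was found for 37.8% of all tested genes, so it is common in these libraries, and what separates the replicate pairs was not tested.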

How the results depend on the processing

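Adgre1 and Ms4a7 were called, and the other 7 of the 9 genes were not, under each of 15 alternatives, the 8 that left out 1 library included. The adjusted p ranged up to 0.0351 for Adgre1 and up to 0.0439 for Ms4a7. Over all tested genes, 2261 were called with DESeq2 and 2000 when replicate number was fitted as a block, against 1445. Leaving out 1 library gave 565 to 1440 genes, with 862 and 879 without BMDC replicates 3 and 4 and 797, 867 and 565 without BMDC-fer replicates 2, 3 and 4. Within replicates 1 and 2, 2 of the 9 genes were called with library size alone as scaling, against 5, and 3 to 6 without 1 library, with 3 left without BMDC replicate 1 or BMDC-fer replicate 2. Within replicates 3 and 4 the number without 1 library was 1 to 6, with 1 left without BMDC-fer replicate 4 and 3 without BMDC replicate 4. The effect differed between pairs for 2 to 3 genes without 1 library. The replicate block lost the calls of Csf1 (adjusted p = 0.0700) and of C1qb within replicates 3 and 4 and added that of Cd163 there, and changed no other call among the 9 genes. It changed the counts of several lists, most for dendritic cell markers (5 lower without it, 11 lower and 1 higher with it) and neutrophil markers (5 and 9 lower), and it added calls for Luzp1, Cpa3 and 5 of the 15 genes most like Maf, Csf1r and C1q. Library size alone shifts the median of all genes to -0.09 on the log2 scale.

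Signs turned only for values that had not been called. With the replicate block, Cd14 was at 0.16 and C1s1 at 0.0065. With library size alone, Cd163 within replicates 1 and 2 was at -0.0036, and the difference between pairs was 0.021 for C1qa and 0.16 for Ms4a7. Without 1 library the ranges were -0.39 to 0.27 for Cd14, -0.23 to 1.13 for Cd163, -0.40 to 0.35 for C1s1, -0.43 to 0.71 for Adgre4 and -0.0027 to 0.88 for Ms4a6b. They were -0.32 to 0.75 for Cd163 within replicates 1 and 2, and -0.13 to 0.83 for C1qa and -0.037 to 0.51 for C1qc within replicates 3 and 4. For the difference between pairs they were -0.74 to 0.21 for C1qa, -0.30 to 0.31 for C1qb, -0.21 to 0.29 for Adgre1 and -0.28 to 0.17 for Ms4a7. Causes were not tested. C1s1, Il34 and Serping1 lay under 1 CPM in all libraries, so changes in them could not be resolved at this depth.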
